A study of Mus musculus with 3 samples.

Results

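Cells of cluster 3, which carry the markers of quiescent neural stem cells and of astrocytes, were compared with the oligodendrocyte-like cells of clusters 0 and 2 from the same plates of mouse subventricular zone. The members are the cells that the authors' deposited cluster numbers put on either side: 30 cells of cluster 3 and 77 cells of clusters 0 and 2, or 107 of the 149 cells in the filtered table. Each of the 3 samples is 1 plate of sorted single cells, sequenced with a plate method that gives every well a barcode and every transcript a molecular identifier. All cells came from male C57BL/6J mice, 8 of them pooled in each experiment, with no age given and no treatment group. The dissociated tissue was selected on magnetic beads for GLAST, the glutamate transporter that Slc1a3 encodes, and myelin debris was removed in 2 of the 3 experiments, which the labels do not tie to plates. The labels call the cells neural stem cells.

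Cluster 3 supplied 25, 1 and 4 cells on plates 1 to 3, and clusters 0 and 2 supplied 4, 25 and 48. Transcripts were summed over the cells of a side on a plate. Plates 1 and 3, with at least 3 cells on each side, served as the 2 replicates, while plate 2 has a single cell of cluster 3 and is given beside them. The labels do not say that each plate is 1 experiment, so whether plates 1 and 3 come from separate pools of mice is unknown. The cluster 3 sums held 130788 transcripts on plate 1 and 22306 on plate 3, and the sums of clusters 0 and 2 held 45014 and 432351. Levels are given in CPM, the transcripts of a gene after each sum is scaled to the same total. A count of 0 allows up to 3 transcripts, which is 22.9 CPM for cluster 3 on plate 1 and 134 CPM on plate 3, and 66.6 and 6.94 CPM for clusters 0 and 2. Such limits cover counting error only.

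Astrocytes and the quiescent stem cells of this niche take up glutamate, potassium and water from around neurons, are joined by gap junctions and share most of their transcripts. Oligodendrocytes wrap axons in myelin, a stack of membrane rich in galactolipids and cholesterol that is held together by proteins such as Mbp, under the control of Sox10 and Myrf. Both descend from radial glia, and they couple to each other through gap junctions made of different connexins.

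The markers of each side are given first, as a description, since the clusters were drawn from the same transcripts. The 5 astroglial markers Slc1a2, Clu, Slc1a3, Aldoc and Aqp4 summed to 27989 CPM in cluster 3 on plate 1 and 28732 on plate 3, against 1000.2 and 673 CPM in clusters 0 and 2. The 7 oligodendrocyte markers, among them Mbp, Mog, Mag and Cnp, summed to 444 and 2018 CPM in cluster 3, against 74718 and 72701. The labels' single term, neural stem cells, therefore also covers clusters in which the oligodendrocyte markers summed above the astroglial ones. Within cluster 3, both filament genes often used to find stem cells were scarce: Gfap, of stem and reactive astroglia, stood at 30.6 CPM on plate 1 and 0 on plate 3, and Nes, of neural progenitors, at 15.3 and 0 CPM. These counts do not part stem cells from astrocytes.

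One cell went against its cluster. Among the 4 cells of clusters 0 and 2 on plate 1, a cell of cluster 2 with 1993 transcripts, the fewest of the 4, had 9040 CPM of the 5 astroglial markers and 1004 CPM of the 7 oligodendrocyte markers, where the other 3 cells had 44790 to 96899 CPM of the latter. It held 0 transcripts of Mbp, Mog, Mag and Cnp, and the authors called it G2M. It makes up 4.43% of its sum. Without it, 307 genes were higher in cluster 3 and 319 lower, against 321 and 315 with it, and where it moved the plate 1 level of a gene described below by over 1.5 times, the level without it is given too. The deepest of the 4 cells makes up 45.9% of the same sum. Without that cell the counts were 269 and 222. In cluster 3 on plate 1, the lowest cell for the 5 astroglial markers had 3443 CPM, against a median of 26596 CPM. It held 2324 transcripts and 0 CPM of the 7 oligodendrocyte markers.

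**Figure D1:**
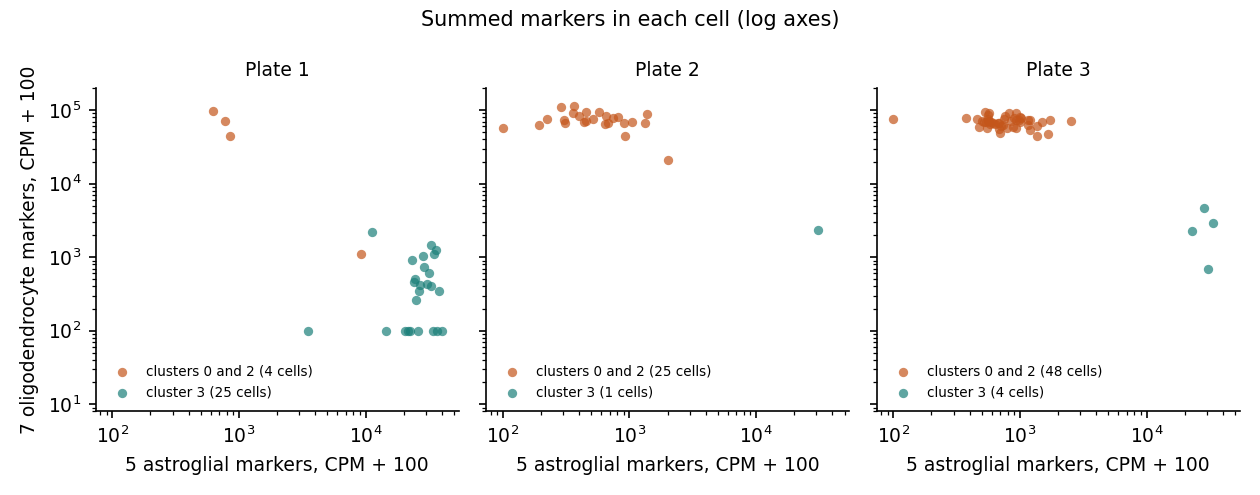
Each point is a cell, with the summed CPM of the 5 astroglial markers on the x axis and of the 7 oligodendrocyte markers on the y axis (both log, with 100 CPM added so that 0 can be drawn), one panel per plate; teal is cluster 3 and orange clusters 0 and 2. On plate 1 a single orange point, at 9040 and 1004 CPM, lies next to the teal cells, while all 25 orange cells of plate 2 and all 48 of plate 3 have more oligodendrocyte than astroglial markers.

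Each side also held a low level of the other side's markers, and this level was set beside that in microglia-like cells (cluster 1) of the same plates, which should lack both. The oligodendrocyte markers stood at 444, 2215 and 2018 CPM in cluster 3 on plates 1 to 3, and at 606, 4203 and 4993 CPM in cluster 1. The astroglial markers stood at 1000.2, 449 and 673 CPM in clusters 0 and 2, or 628 on plate 1 without the myelin-poor cell, and at 1415, 1059 and 2223 CPM in cluster 1. On every plate the summed level in the opposite side was below that in cluster 1. By cells, Mbp was found in 28.0% of cluster 3 cells on plate 1 and 50% on plate 3, against 11.1% and 55.6% of cluster 1 cells, whose median depths were 3497 and 2469 transcripts beside 4114 and 5458 in cluster 3. Slc1a2 was found in 100% of the cells of clusters 0 and 2 on plate 1 and 85.4% on plate 3, against 77.8% and 66.7% of cluster 1 cells, with median depths of 11174 and 7925 transcripts in clusters 0 and 2. On plate 2 Slc1a2 was found in 76.0% of the 25 cells of clusters 0 and 2, against 77.8% of the 18 cluster 1 cells. Median depths there were 11185 and 3673 transcripts. Mbp was found in 66.7% of the cluster 1 cells of plate 2 and not in its single cluster 3 cell. The Slc1a2 share of plate 1 includes the myelin-poor cell, which held Slc1a2. Thus the Slc1a2 share on plates 1 and 3 and the Mbp share on plate 1 were above those in cluster 1. The summed levels, the Slc1a2 share on plate 2 and the Mbp share on plates 2 and 3 were below. Cluster 1 has 9 cells on each of plates 1 and 3. Clusters 0 and 2 held 15.1% of all transcripts of plate 1, 79.1% of plate 2 and 90.4% of plate 3. Cluster 3 held 44.0%, 0.98% and 4.66% in the same order. The myelin markers in clusters 1 and 3 were lowest on plate 1, but in cluster 3 they were lower on plate 3 than on plate 2. The astroglial markers in cluster 1 were highest on plate 3 and lowest on plate 2. Those in clusters 0 and 2 were highest on plate 1, or on plate 3 without the myelin-poor cell. The source of these low levels was not tested.

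Of 1718 genes with enough transcripts to test, 321 were higher in cluster 3, or 18.7%, and 315 were lower, or 18.3%, with plate in the model (edgeR quasi-likelihood F test, Benjamini-Hochberg adjusted p under 0.05). The clusters were drawn from the same transcripts, so these calls describe how the 2 sides differ and are no independent test of it. The median log2 difference over all tested genes was 0.0039. All 321 and 315 genes lay on their side on both plates, and for 321 and 314 of them the 2 values of one side lay wholly above the 2 of the other, as did 33.2% of all tested genes for cluster 3 and 36.7% for clusters 0 and 2. On plate 2, where cluster 3 is 1 cell of 4065 transcripts, 211 of the 321 (65.7%) and 304 of the 315 (96.5%) lay on the same side, beside 32.9% and 65.4% of all tested genes. With DESeq2 the counts were 168 and 135. Leaving out a plate leaves 1 sum a side, so those fits also took in the sums of plate 2, cluster 1 and, where plate 1 stayed, cluster 4 and had their spread from them, on the assumption that the lone sums vary alike. They gave 95 higher and 224 lower of 2810 genes tested without plate 1, and 215 and 152 of 4062 without plate 3. The fit over all these sums with both plates gave 321 and 368 of 4080. Below, "without plate 1" and "without plate 3" stand for these fits, in which the genes tested are not the same.

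To show upstream sequence beside the values, 2 genes higher in cluster 3 and 2 lower were chosen that have a single start in the RefSeq table (build GRCm38.p6). Each line gives the 250 bases before the start, 5′ to 3′ in the direction of the gene, and capitals mark matches, on either strand, to the letters CTGGNAC (Myrf), ACAAAG (Sox family) and TTGGCA (the NFI family), none of which overlap here.
Slc1a3, chr15:8710808-8711057, minus strand: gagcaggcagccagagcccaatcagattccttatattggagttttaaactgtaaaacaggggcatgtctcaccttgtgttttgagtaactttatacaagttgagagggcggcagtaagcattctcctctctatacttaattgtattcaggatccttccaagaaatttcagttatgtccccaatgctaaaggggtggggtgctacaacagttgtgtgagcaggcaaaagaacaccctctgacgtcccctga
Gja1, chr10:56377050-56377299, plus strand: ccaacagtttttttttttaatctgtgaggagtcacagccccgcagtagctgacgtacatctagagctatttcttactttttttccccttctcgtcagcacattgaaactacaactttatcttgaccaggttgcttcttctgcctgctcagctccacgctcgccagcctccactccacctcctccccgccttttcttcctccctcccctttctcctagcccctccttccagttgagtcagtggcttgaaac
Mog, chr17:37023399-37023648, minus strand: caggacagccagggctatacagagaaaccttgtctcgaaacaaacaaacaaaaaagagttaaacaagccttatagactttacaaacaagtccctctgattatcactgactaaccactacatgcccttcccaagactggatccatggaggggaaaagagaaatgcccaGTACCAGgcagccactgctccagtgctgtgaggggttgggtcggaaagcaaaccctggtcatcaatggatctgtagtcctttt
Cnp, chr11:100574689-100574938, plus strand: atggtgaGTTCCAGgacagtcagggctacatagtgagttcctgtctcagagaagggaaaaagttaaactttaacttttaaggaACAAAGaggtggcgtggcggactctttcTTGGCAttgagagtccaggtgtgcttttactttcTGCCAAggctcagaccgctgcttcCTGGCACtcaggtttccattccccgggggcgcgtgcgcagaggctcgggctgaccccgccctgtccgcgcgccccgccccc
Slc1a3 and Gja1 hold 0 matches in this window, Mog holds 1 and Cnp holds 5. Over the genes with a sequence in the table, the Myrf letters were in 20.5% of the windows of genes lower in cluster 3, 18.0% of those of higher genes, 15.7% of those of all tested genes and 16.1% of all windows in the table. The Sox letters were in 18.9%, 12.6%, 13.5% and 16.5%, and the NFI letters in 11.7%, 10.2%, 9.58% and 12.3%. A match is a run of letters and not a binding site.

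The 5 markers of cluster 3 differed by a wide margin. Since the clusters were drawn from the same transcripts, this describes the clusters and is no test of them. Slc1a2, the main glutamate transporter of astrocytes, stood at 9370 and 10906 CPM in cluster 3 and at 445 and 234 CPM in clusters 0 and 2, which is 21.1-fold on plate 1 and 46.7-fold on plate 3. Without the myelin-poor cell the plate 1 level in clusters 0 and 2 was 279 CPM. Slc1a3, whose protein was the selection antigen of the whole preparation, stood at 5578 and 5898 CPM in cluster 3 and 111 (46.5 without the myelin-poor cell) and 125 CPM in clusters 0 and 2 (log2 difference 5.63, SE 0.58, edgeR adjusted p = 1.62e-19). Clu, which encodes the lipid carrier clusterin, stood at 7009 and 6939 CPM against 111 and 134. Aldoc, the aldolase of astrocytes, had 5022 and 3508 CPM against 311 (163 without that cell) and 171. Aqp4, the water channel of astrocyte endfeet, had 1011 and 1481 CPM against 22.2 and 9.25. No values of the 2 sides overlapped for any of the 5, and 33.2% of all tested genes also had cluster 3 wholly above.

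The calls of each list below are to be set beside those of all tested genes, 18.7% higher and 18.3% lower. Genes that handle glutamate, GABA and amino acids were higher in cluster 3 for 12 of the 13 tested members of their list and lower for 1, with a median log2 difference of 2.99. With DESeq2 the higher members were 8, and they were 4 of 10 tested without plate 1 and 7 of 14 without plate 3. Slc38a3, which passes glutamine between astrocytes and neurons, had 467 and 538 CPM in cluster 3 and 0 and 2.31 in clusters 0 and 2. Glud1, the enzyme that burns glutamate in mitochondria, had 1102 and 807 CPM against 156 and 102. The GABA transporter gene Slc6a11 was higher in cluster 3, with 405 and 269 CPM against 22.2 and 6.94, and lost its call without plate 3 (log2 difference 4.29, edgeR adjusted p = 0.079). The member that was lower was the glycine transporter gene Slc6a9, with 99.4 and 135 CPM in cluster 3 and 489 and 294 in clusters 0 and 2 (log2 difference -1.72, SE 0.69, edgeR adjusted p = 0.0353). Its call was lost without plate 1 (adjusted p = 0.345) and without plate 3 (0.376).

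Glul, glutamine synthetase, is often used as an astrocyte marker and was among the least different members. It stood at 2915 and 2740 CPM in cluster 3 and at 1047 and 1312 CPM in clusters 0 and 2, a ratio of 2.78-fold and 2.09-fold. Its log2 difference was 1.37 (SE 0.45, edgeR adjusted p = 0.00911), and it did not pass without plate 1 (0.67, adjusted p = 0.375) or with DESeq2 (1.29, adjusted p = 0.137).

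Water, ion and gap junction genes were higher in cluster 3 for 10 of 12 tested, with a median of 5.58 on the log2 scale and 10 also with DESeq2. Atp1b2, which encodes a sodium pump subunit of astrocytes, had 7495 and 4508 CPM against 311 and 245, or 116 on plate 1 without the myelin-poor cell. Gja1, connexin 43, had 2830 and 3326 CPM in cluster 3 and 44.4 (23.2 without that cell) and 41.6 CPM in clusters 0 and 2 (log2 difference 6.22, SE 0.60, edgeR adjusted p = 1.45e-21). Slc4a4, a bicarbonate transporter, had 995 and 1167 CPM against 0 and 20.8, and Mlc1, a membrane protein of astrocyte endfeet, had 865 and 1077 CPM against 0 and 18.5. The potassium channel gene Kcnj10, known from astrocytes and also from oligodendrocytes, did not pass: it had 367 and 224 CPM in cluster 3 and 378 and 505 CPM in clusters 0 and 2.

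Receptors and ligands of the Notch, FGF, BMP and other families were higher for 12 of 15 tested (median 4.46 on the log2 scale, 9 with DESeq2, 7 of 11 without plate 1, 11 of 20 without plate 3). S1pr1, a receptor of the lipid sphingosine 1-phosphate, had 3562 and 2832 CPM in cluster 3 and 0 and 55.5 CPM in clusters 0 and 2. Ntsr2, a neurotensin receptor, had 2115 and 2605 CPM against 22.2 and 23.1. Ednrb, the endothelin B receptor, had 957 and 1661 CPM against 44.4 and 2.31. Fgfr3, a receptor for fibroblast growth factors on astroglia, had 1248 and 942 CPM against 44.4 and 0, and the 44.4 CPM came from the myelin-poor cell, without which both values were 0. Ntrk2, which encodes the receptor of brain-derived neurotrophic factor, had 1210 and 1795 CPM against 178 (116 without that cell) and 37.0.

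Matrix and adhesion genes were higher for 11 of 13 tested, with a median of 4.53 on the log2 scale, and for 8 with DESeq2, 5 of 13 without plate 1 and 10 of 15 without plate 3. Sparcl1, a secreted protein that promotes synapses, had 6552 and 8850 CPM in cluster 3 and 88.9 and 206 CPM in clusters 0 and 2. The proteoglycans of the brain matrix followed the same split, with Bcan, brevican, at 2101 and 1842 CPM against 0 and 32.4 and Cspg5 at 903 and 1302 CPM against 0 and 9.25. Ptprz1, a receptor phosphatase that carries chondroitin sulfate, had 1194 and 897 CPM against 22.2 and 20.8.

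Of the transcription regulators linked to stem cells, 9 of 11 tested were higher (median 3.81 on the log2 scale), 5 with DESeq2, 3 of 11 without plate 1 and 10 of 18 without plate 3. Another 13 of the 24 listed fell under the filter on low counts. Sox9, a regulator of astroglial fate, had 1478 and 1212 CPM in cluster 3 and 156 and 69.4 CPM in clusters 0 and 2, or 69.7 on plate 1 without the myelin-poor cell. Id2, an inhibitor of differentiation factors that bind DNA as helix-loop-helix pairs, had 880 and 673 CPM against 0 and 6.94. Sox2, the stem cell factor, had 758 and 493 CPM against 22.2 and 37.0. The Notch target Hes5 had 268 and 269 CPM against 22.2 and 0, and it lost its call without plate 3 (log2 difference 4.05, edgeR adjusted p = 0.295).

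Genes named for the stem cells and radial glia of this niche were mostly too scarce to compare: 5 of 17 were tested, and 3 of them were higher in cluster 3, 1 with DESeq2. Without plate 1 it was 0 of 3 tested and without plate 3 it was 5 of 13. Vcam1, an adhesion receptor of quiescent stem cells, had 428 and 135 CPM against 22.2 and 2.31, the 22.2 all from the myelin-poor cell. Hopx, a homeodomain protein of quiescent stem cells, had 651 and 224 CPM against 0 and 46.3, and Fabp7, a fatty acid binding protein of radial glia, had 352 and 179 CPM against 22.2 and 13.9. Thbs4, a thrombospondin of the astroglia of this zone, was not tested, with 68.8 and 449 CPM in cluster 3 and 0 in clusters 0 and 2 on both plates. The 6 markers of division summed to 214 and 44.8 CPM in cluster 3 and to 244 and 248 CPM in clusters 0 and 2, or 69.7 on plate 1 without the myelin-poor cell. In cluster 3 Mki67 stood at 30.6 CPM on plate 1 and 0 on plate 3, and the 3 cells of cluster 3 that the authors called outside G0, all on plate 1, held 0 transcripts of Mki67, Top2a, Ccnd2 and Egfr.

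Lipid handling genes were higher for 11 of 15 tested (median 3.74 on the log2 scale, 9 with DESeq2, 6 of 14 without plate 1, 8 of 18 without plate 3), several of which stand in more than one list. Apoe, the main apolipoprotein of the brain, had 10804 and 10987 CPM in cluster 3 and 1855 and 940 CPM in clusters 0 and 2. Ppap2b, a lipid phosphatase gene now named Plpp3, had 5421 and 4501 CPM against 245 and 197. Acyl-CoA synthetases, which activate fatty acids, went the same way: Acsl3 had 2062 and 1526 CPM against 267 and 278, and Acsl6 had 819 and 808 CPM against 0 and 16.2.

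Central metabolism gave smaller shares of calls than the astroglial lists, though not always smaller than the 18.7% higher and 18.3% lower among all tested genes. In glycolysis 3 of 10 tested genes were higher, and 2 with DESeq2, with a median log2 difference of 1.00. Of its 16 genes, which include 6 not tested, 9 had both cluster 3 values above both values of clusters 0 and 2, and 0 the reverse. Among all tested genes these shares were 33.2% and 36.7%. Beside Aldoc the higher genes included Ldhb, the lactate dehydrogenase chain that favours lactate use, with 872 and 942 CPM against 178 and 50.9. The related Aldoa did not pass, with 612 and 583 CPM in cluster 3 and 311 and 437 CPM in clusters 0 and 2. Cholesterol synthesis gave 1 call among 8 tested and 0 with DESeq2 (3 at an unadjusted p under 0.05), with a median of 1.43 on the log2 scale. Its 19 genes summed to 3015 and 2737 CPM in cluster 3 and to 1422 and 1664 CPM in clusters 0 and 2. The gene called, Sc4mol, a sterol oxidase gene now named Msmo1, had 1134 and 1168 CPM against 311 and 296, and was not past the threshold without plate 1 (log2 difference 1.46, edgeR adjusted p = 0.128). Lysosomal genes gave 1 higher and 1 lower call among 16 tested, and 0 with DESeq2 (4 at an unadjusted p under 0.05), with a median of 0.67. Few calls do not show that these genes were alike on both sides.

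Metal and redox genes divided. Of 10 tested, 6 were higher in cluster 3 and 1 was lower. The metallothioneins bind zinc and copper: Mt1 had 3266 and 3237 CPM in cluster 3 and 511 and 238 CPM in clusters 0 and 2, and Mt2 had 1662 and 1661 CPM against 44.4 (23.2 without the myelin-poor cell) and 48.6. Prdx6, a peroxidase of phospholipids, had 1286 and 1526 CPM against 156 and 83.3. Of the glutathione transferases named, Gstm1 was higher and Gstp1 lower, with Gstm1 at 1738 and 2471 CPM against 222 and 148 and Gstp1 at 7.65 and 0 CPM against 624 and 204. Gstp1 lost its call without plate 1 (log2 difference -8.27, edgeR adjusted p = 0.0646). Of the 4 iron genes tested, 3 were lower in cluster 3, and 2 with DESeq2. Trf, transferrin, had 15.3 and 44.8 CPM against 5106 and 5126, and Fth1, the ferritin heavy chain, had 620 and 808 CPM against 6625 and 8422 (log2 difference -3.28, SE 0.53, edgeR adjusted p = 1.33e-08). The ferritin light chain gene Ftl1 did not pass, with 428 and 673 CPM in cluster 3 and 757 and 616 CPM in clusters 0 and 2.

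**Figure D2:**
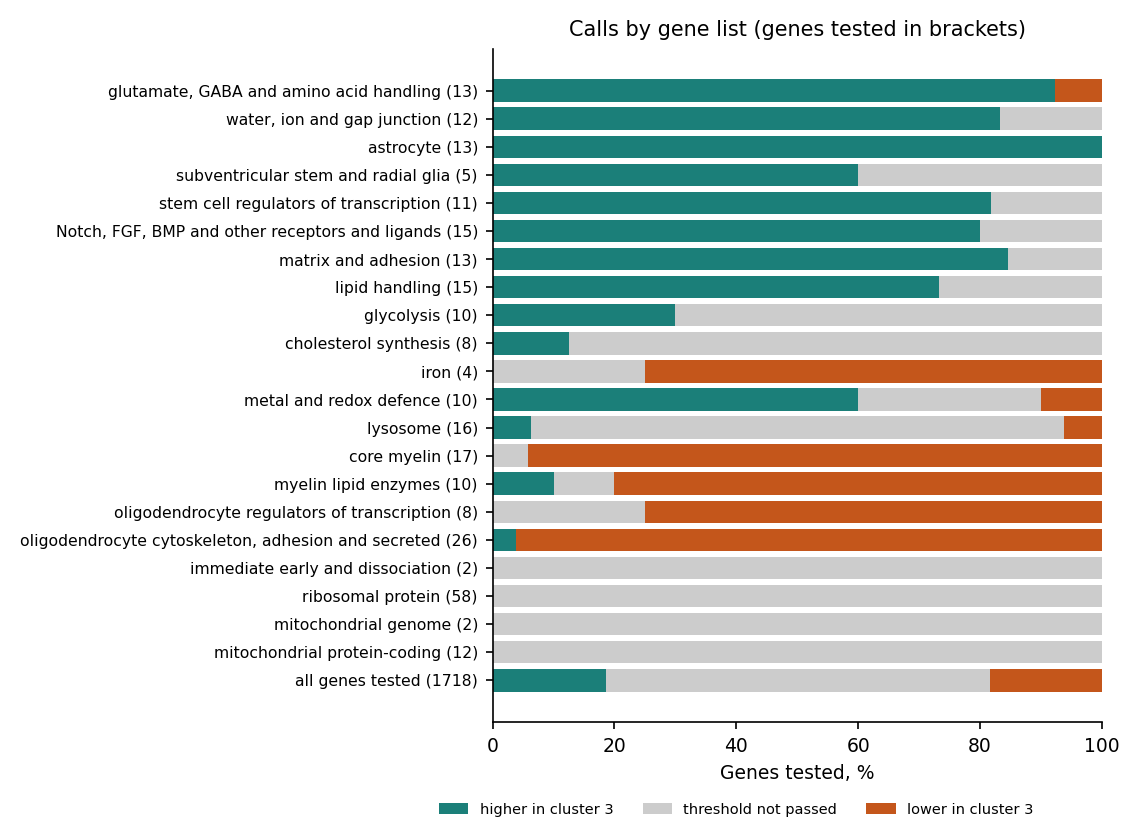
Bars give, for each gene list, the percent of its tested genes that were higher in cluster 3 (teal), lower (orange) or did not pass the threshold (grey), with the number tested in brackets and all 1718 tested genes at the bottom. The astroglial lists are mostly teal and the oligodendrocyte lists mostly orange, while ribosomal and mitochondrial genes are grey throughout.

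On the other side, core myelin genes were lower in cluster 3 for 16 of 17 tested. Their median log2 difference was -5.68, or -5.44 with the 2 members that had 0 transcripts in cluster 3 set at their bounds, and 14 passed with DESeq2. Mbp, myelin basic protein, had 6835 and 7874 CPM in clusters 0 and 2 and 76.5 and 314 CPM in cluster 3. It was higher in the cluster 3 sum of plate 3 than in that of plate 1, as was the summed myelin level in cluster 1. Mal, a raft protein of myelin, had 12677 and 10012 CPM against 15.3 and 179, and Cldn11, the tight junction protein between myelin layers, had 11630 and 9677 CPM against 53.5 and 135. Mog, on the outer face of myelin, had 2662 and 2289 CPM against 7.65 and 0 (log2 difference -8.28, SE 0.85, edgeR adjusted p = 1.51e-19). Omg, a membrane glycoprotein also made by neurons, was the member that did not pass, with 645 and 532 CPM in clusters 0 and 2 and 581 and 44.8 CPM in cluster 3.

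The enzymes of myelin lipids were lower in cluster 3 for 8 of 10 tested and higher for 1, and 7 were lower with DESeq2. Their median log2 difference was -4.15, or -3.32 with the 2 members at 0 in cluster 3 set at their bounds. Fa2h, which hydroxylates the fatty acids of myelin galactolipids, had 1292 and 1300 CPM in clusters 0 and 2 and 0 in cluster 3 on both plates, so it was at least 56.3-fold higher in clusters 0 and 2 on plate 1 and at least 9.67-fold on plate 3. Ugt8a, which adds the galactose, had 1516 and 1935 CPM against 0 and 89.7. Scd2, a fatty acid desaturase, was lower by less, with 2245 and 2876 CPM in cluster 3 and 7221 and 6984 CPM in clusters 0 and 2, and it lost its call without plate 3 (log2 difference -0.98, edgeR adjusted p = 0.286). The desaturase gene Fads1 went the other way, with 421 and 448 CPM in cluster 3 and 66.7 and 83.3 CPM in clusters 0 and 2, but it lost its call without plate 1 (2.07, adjusted p = 0.286) and without plate 3 (2.97, adjusted p = 0.114).

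Of the oligodendrocyte transcription regulators, 6 of 8 tested were lower, and 5 with DESeq2 (median -4.37 on the log2 scale, or -2.98 with the 2 members at 0 in cluster 3 at their bounds). Without the myelin-poor cell 8 of 10 were lower. Sox10, the lineage factor, had 2237 and 1844 CPM in clusters 0 and 2 and 15.3 and 135 CPM in cluster 3. Olig1 had 1673 and 1435 CPM against 61.2 and 0. Myrf, the activator of myelin genes, had 623 and 732 CPM against 0 on both plates, or at least 27.2-fold and 5.44-fold higher. Markers of oligodendrocyte precursors were near 0 on both sides: their 7 genes summed to 44.4 and 16.2 CPM in clusters 0 and 2, with Pdgfra at 0 in every sum.

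The list of cytoskeletal, adhesion and secreted oligodendrocyte genes had 25 of 26 tested members lower and 1 higher, and 20 lower with DESeq2 (median -4.88 on the log2 scale, or -4.31 with the 3 members at 0 in cluster 3 at their bounds). Tubb4a, a tubulin of myelinating cells, had 7027 and 6317 CPM in clusters 0 and 2 and 45.9 and 404 CPM in cluster 3. Ptgds, prostaglandin D synthase, had 15151 and 6390 CPM against 61.2 and 179. Car2, carbonic anhydrase, had 2823 and 4362 CPM against 421 and 269. The exception was Marcks, an actin-binding substrate of protein kinase C, with 184 and 269 CPM in cluster 3 and 88.9 and 9.25 CPM in clusters 0 and 2 (log2 difference 2.96, SE 1.04, edgeR adjusted p = 0.0139), which did not pass with DESeq2 (adjusted p = 0.217).

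The 15 genes with the largest differences towards cluster 3, at 10 or more transcripts on that side of both plates, were Adhfe1, an alcohol dehydrogenase, Dio2, which activates thyroid hormone, Dkk3, a secreted protein of the dickkopf family, Slc38a3, Ednrb, Fgfr3, Cspg5, the secreted protein Fjx1, Gabrb1, a GABA receptor subunit, Aqp4, the scaffold Dlgap1, Ntsr2, Id2 and the amino acid transporters Slc7a2 and Slc7a10. Adhfe1, with 237 and 673 CPM in cluster 3 and 0 on both plates of the other side, was at least 3.56-fold higher on plate 1 and at least 97.0-fold on plate 3. Its rank rests on a fitted log2 difference of 9.53, which depends on the fit's prior count, while its bound is 4.215. Dio2 had 252 and 898 CPM against 0 and 2.31. Adhfe1 (log2 difference 5.03, edgeR adjusted p = 0.331), Dio2 (7.58, adjusted p = 0.235) and Slc7a10 (6.47, adjusted p = 0.074) lost their calls without plate 3.

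All 15 genes with the largest fitted differences in the other direction had 0 transcripts in cluster 3 on both plates. Besides Fa2h and Myrf they were Efnb3, an ephrin ligand, Pllp, a myelin membrane protein, the microtubule proteins Tppp and Slain1, Phldb1, Ndrg1, the membrane skeleton proteins Epb4.1l3 and Ank3, Lgi3, Sez6l2, the lysophosphatidic acid receptor Lpar1, the phosphatase inhibitor Ppp1r14a and the potassium channel Kcna1. In the single cluster 3 cell of plate 2, 14 of these 15 were also at 0, where 1 transcript is 246 CPM, and Kcna1 had 246 CPM. Efnb3 had 1270 and 1273 CPM in clusters 0 and 2, at least 55.4-fold and 9.46-fold higher, and Kcna1 had 467 and 746 CPM, at least 20.4-fold and 5.54-fold. With DESeq2, 6 of these 15 (Pllp, Tppp, Phldb1, Ndrg1, Epb4.1l3 and Sez6l2) did not pass. Among all called genes, 62 of the 315 lower ones were at 0 in cluster 3 on both plates, and 14 of the 321 higher ones were at 0 in clusters 0 and 2. For genes at 0 the fitted log2 difference depends on the fit's prior count, and so does their place among the 15. Fa2h was fitted at -10.6, but with 3 transcripts allowed in each cluster 3 sum its bound is -4.54. For Kcna1 these values are -9.26 and -3.41. Mal, with transcripts on both sides, had -7.715, so the 15 need not be the genes that differ most.

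**Figure D3:**
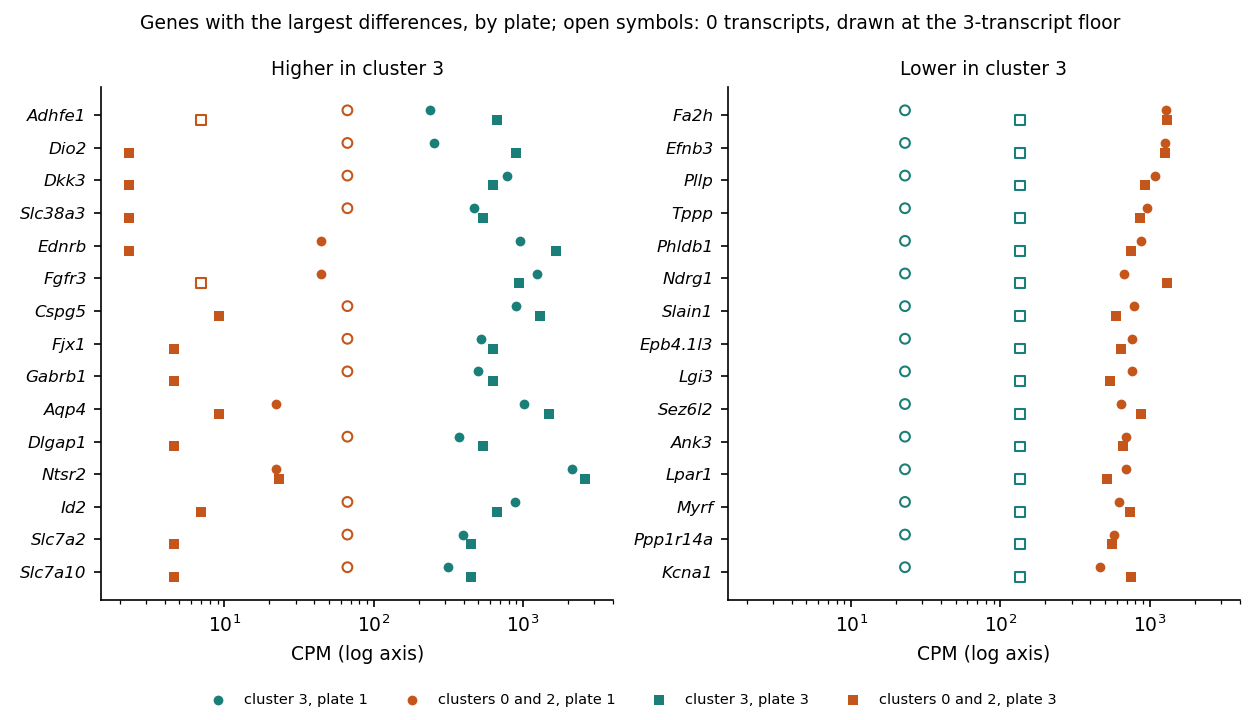
Points give the CPM (log axis) of the 15 genes with the largest fitted difference in each direction. Circles are plate 1 and squares plate 3, with teal for cluster 3 and orange for clusters 0 and 2. Open symbols are sums with 0 transcripts, drawn at the level of 3 transcripts. For the genes lower in cluster 3 every teal symbol is open, and the limit on plate 3, 134 CPM, lies closer to the orange points than that on plate 1, 22.9 CPM.

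Some related genes took opposite sides. Of 20 pairs from one family or complex, which were chosen with earlier results known so that their count is a description, 8 had one gene higher and the other lower in cluster 3, 3 had both higher, and in 9 at most 1 gene was called. The connexins Gjb6, of astrocytes, and Gjc3, of oligodendrocytes, parted in this way. Gjb6 had 490 and 359 CPM in cluster 3 and 0 and 9.25 CPM in clusters 0 and 2. The 2 sphingosine 1-phosphate receptors parted as well, and S1pr5 had 0 CPM in cluster 3 and 289 and 190 CPM in clusters 0 and 2, although it lost its call without plate 1 (adjusted p = 0.0907).

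The tight junction genes gave Cldn10 to cluster 3, with 1095 and 1122 CPM against 22.2 and 20.8, and Cldn11 to clusters 0 and 2. Ndrg2 had 1908 and 1795 CPM in cluster 3 against 66.7 and 55.5, whereas Ndrg1 had 0 in cluster 3 and 667 and 1305 CPM in clusters 0 and 2. The sodium pump subunits gave Atp1b2 to cluster 3 and Atp1b3 to clusters 0 and 2, the latter with 122 and 89.7 CPM against 1092 and 1043. Among tetraspanins, Tspan7 had 3474 and 3957 CPM in cluster 3 against 222 and 160, and Tspan2 had 15.3 and 89.7 CPM against 5430 and 3583. Sox9 with Sox10, and the chloride channels Ttyh1 with Ttyh2, were the remaining pairs, and Ttyh2 lost its call without plate 3 (adjusted p = 0.211). Ndrg1 did not pass with DESeq2 (adjusted p = 0.185).

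**Figure D4:**
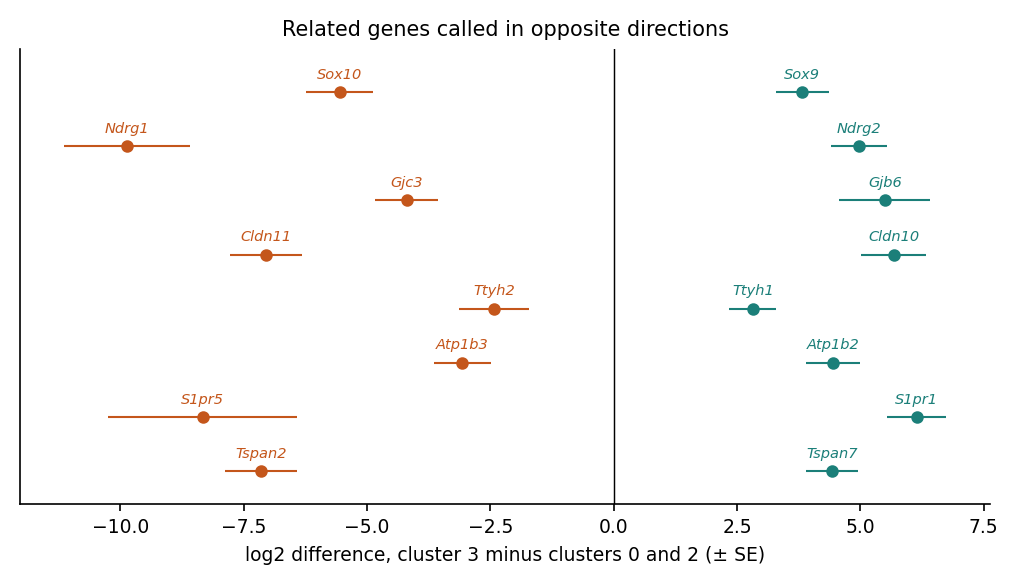
Each row is a pair of related genes, with the fitted log2 difference of cluster 3 minus clusters 0 and 2 and its standard error, teal for the gene higher in cluster 3 and orange for the gene lower. All 8 pairs have one gene on each side of 0; the values of Ndrg1 and S1pr5, at 0 transcripts in cluster 3, depend on the fit's prior count and are no measure of fold.

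Genes of general cell machinery gave no calls. Of 58 tested ribosomal protein genes 0 passed the threshold with edgeR, 1 had an unadjusted p under 0.05, and 0 passed with DESeq2. Their median log2 difference was -0.10. All 80 in the table summed to 12910.5 and 14753 CPM in cluster 3 and 16381.5 and 17094 CPM in clusters 0 and 2. Of the 80, 27 had both values of clusters 0 and 2 above both of cluster 3, and 4 the reverse. These shares were 36.7% and 33.2% among all tested genes. The lack of calls does not show that the ribosomal genes were alike on both sides. The 12 tested protein-coding genes of the mitochondrial genome, a list chosen after the values were seen, also gave 0 calls with edgeR and 0 with DESeq2, with 2 at an unadjusted p under 0.05, and summed to 110768 and 148822 CPM in cluster 3 and 121286 and 95772 CPM in clusters 0 and 2. Immediate early genes, which respond to dissociation, summed to 1424 and 852 CPM against 1200.2 and 812.

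Markers of other cell types were low on both sides. The 10 microglial markers summed to 987 and 179 CPM in cluster 3 and to 578 and 211 CPM in clusters 0 and 2, with 8 of them at 0 in cluster 3 on plate 3. The 7 endothelial or mural markers summed to 214 and 269 CPM against 0 and 81.0. Among them Pdgfrb, the mural growth factor receptor, passed the threshold with 122 and 135 CPM against 0 and 2.31 (edgeR adjusted p = 0.0382). That call was lost without the myelin-poor cell (edgeR adjusted p = 0.124) and with no filter on low counts (edgeR adjusted p = 0.543). It was also lost with DESeq2 (adjusted p = 0.094). Neuroblast markers summed to 38.2 and 0 CPM against 88.9 and 50.9, and ependymal markers to 53.5 and 0 against 22.2 and 53.2. Neuron markers summed to 99.4 and 224 CPM in cluster 3, all of it from Meg3, against 0 and 11.6. Their part in the differences above was not tested.

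Autofluorescence was measured in each cell by the sorter and was not used to draw the clusters, as far as the sources used here state. Cluster 3 ranged from 548 to 3835 units on plate 1, with a median of 1839, and from 853 to 1911 on plate 3, with a median of 1776. Clusters 0 and 2 ranged from 808 to 3356 units on plate 1, with a median of 1076, and from 80.3 to 2419 on plate 3, with a median of 1035. The ranges overlapped on both plates. The medians of cluster 3 were 1.71-fold higher on each plate (log10 difference 0.234, 2 plates, exact sign-flip permutation p = 0.5, two-sided, the smallest that 2 plates allow). The single cell of cluster 3 on plate 2 had 2900 units against a median of 1577. The size depends on the summary: with means of log10 values in place of medians, cluster 3 was 1.41-fold higher.

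The side with the higher median of light had the lower median of transcripts. Cluster 3 had medians of 4114 and 5458 transcripts per cell on plates 1 and 3, and clusters 0 and 2 had 11174 and 7925. By medians of log10 values, which differ from these where the cells are even in number, clusters 0 and 2 had 2.31-fold and 1.46-fold more (1.83-fold over both plates, exact two-sided permutation p = 0.5 by flipping signs, again the lowest that can be had). Without the myelin-poor cell plate 1 gave 4.15-fold. The median of the genes detected was 1781 and 2123 in cluster 3 and 2754 and 2564 in clusters 0 and 2. When every cell was thinned to 1000 transcripts, the medians were 618 and 603 genes in cluster 3 and 580 and 609 in clusters 0 and 2, and the order was not the same on the 2 plates. Within a side the relation of light and transcripts ran the other way: Spearman's rho across cells was 0.42 in cluster 3 on plate 1 (25 cells), 0.50 in clusters 0 and 2 on plate 2 (25 cells) and 0.57 on plate 3 (48 cells). These cells share a plate and are no replicates, so rho is a description.

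**Figure D5:**
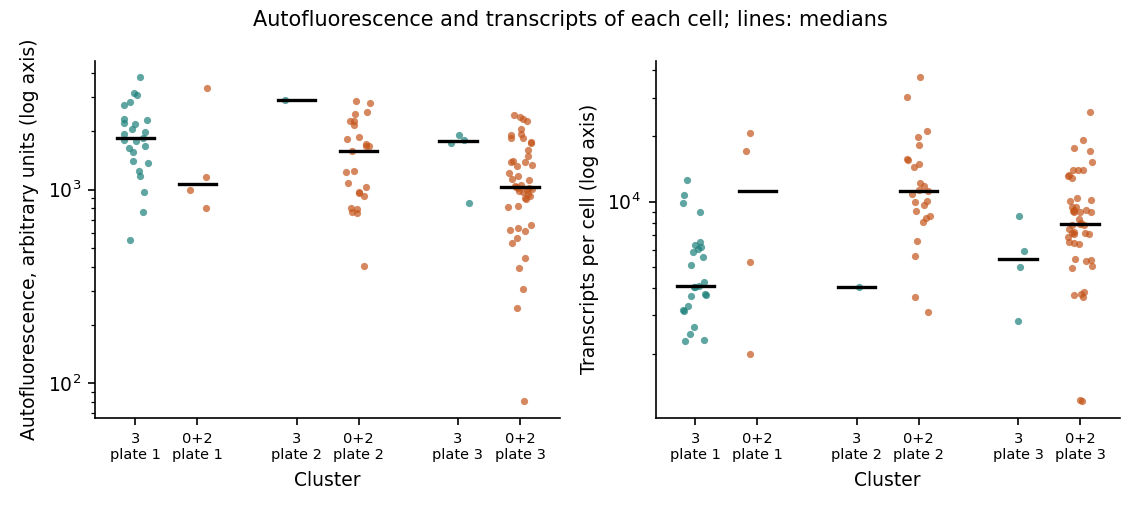
Points are cells, by plate and cluster, with autofluorescence in arbitrary units on the left and transcripts per cell on the right (both log axes); black lines are medians. The medians of cluster 3 lie above those of clusters 0 and 2 for autofluorescence (1839 against 1076 on plate 1, 1776 against 1035 on plate 3) and below them for transcripts (4114 against 11174, 5458 against 7925), with overlapping cells.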

How the data were processed

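Values in the deposited filtered table are estimated counts, which the authors corrected for molecular identifiers that collide. Undoing that correction, with 4096 identifiers, returned a whole number (tolerance 1e-06) for 100% of 349688 values over 0. Autofluorescence is the authors' deposited intensity per cell, in arbitrary units. The authors' cluster numbers and phase calls, as deposited, were used unchanged, and 14 other columns of the table per cell were not used here. BWA 0.7.15, R 4.2.0 and Seurat 4.1.1 are named, with no role, in the submitters' processing notes. The sources used here do not name the gene models counted.

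Transcripts were summed per plate and side and rounded. edgeR 4.0.16 in R 4.3.3 (quasi-likelihood F test with TMM scaling, filterByExpr and a block for plate) was fitted over 16178 genes, of which 1718 passed the filter, with 1 residual degree of freedom. The prior degrees of freedom were infinite: p-values rest on a spread shared over all genes, not on each gene's own 2 pairs of sums. DESeq2 1.42.0 and the other settings are described at the end. The fit was tested on simulated data, whose spread was set and not taken from these data. Of 100 genes given a log2 change of 1, 9 were called, and of 100 given a change of 3, 100 were called. Of 1518 genes with no change, 4 were called. Changed genes were drawn from those with many transcripts, so small differences would mostly be missed. No doublet caller was run. Plates reuse well positions: 30 of the 71 positions held by the 107 cells occur on 2 or more plates.

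The members, gene lists and pairs were chosen with earlier results of these data known. Genes were named as follows: the 5 markers; in each direction the 15 called genes with the largest difference among those with the same sign on both plates and at least 10 transcripts on the higher side of each; of each list the 4 members with the highest mean CPM and any called member; both genes of a pair; and other cell types' markers above 0. Results for some genes and pairs that these rules name are not reported here. Ccnd2, Top2a, Egfr, Gfap, Nes and Thbs4 were named after their values were seen. Sequences come from RefSeq's table for GRCm38.p6, matched by symbol.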

Additional observations from a re-analysis of the deposited data

How the results depend on the processing

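Depth and 2 plates limit these results: the fit has 1 residual degree of freedom, cluster 3 rests on 4 cells on plate 3 and clusters 0 and 2 on 4 cells on plate 1, and a gene at 0 in cluster 3 on plate 3 may still stand at up to 134 CPM. Of 92 called genes named in the text, 0 changed direction under any setting run and 28 lost their call under at least 1: 15 with DESeq2, 11 with no filter on low counts, 10 without plate 3, 7 without plate 1, 4 (Acsl6, Glul, Sox9 and Ttyh1) of the 57 still tested with cells thinned to 1000 transcripts, and 2 or fewer under each other setting. Of the 92, 83 were tested without plate 1 and 85 with plate 2 added, and genes not tested in a setting are not counted as losing their call. Counts of genes higher in cluster 3 moved from 321 to 120 with no filter, 168 with DESeq2, 202 with plate 2 added and 46 among the 189 genes testable after thinning. Counts of lower genes moved from 315 to 135 with DESeq2 and 66 after thinning. Leaving out a plate, in fits that take their spread from plate 2 and other clusters and test 2810 or 4062 genes, gave 95 to 215 higher and 152 to 224 lower genes. The replicate numbers are those of the plates: without the plate block, in a fit with no replicate block, 410 genes were higher and 364 lower. The share of higher genes among all calls, 50.5%, was 35.0% with no filter, 40.5% with plate 2 and 29.8% without plate 1. RLE size factors moved the median of all tested genes from 0.0039 to -0.096, no filter moved it to -0.25, DESeq2 to -0.12, plate 2 to -0.32, cluster 2 alone to 0.18, thinning to -0.40 and leaving out plates 1 and 3 to -0.98 and 0.43. Genes that were not called and changed sign were Ccnd2 (-0.49 with cluster 2 alone, -0.48 without the deepest oligodendrocyte-like cell of plate 1), Ftl1 (0.061 and 0.056 in the same order), and, without plate 3, Kcnj10 (0.47, against -1.68 without plate 1) and Omg (0.17, against -4.20). The log10 difference in autofluorescence, 0.234, was 0.15 with means, 0.244 on 3 plates, 0.263 against cluster 2 alone and 0.218 without the myelin-poor cell, and 0.234 on either plate. That in transcripts, -0.263, was -0.391 without the myelin-poor cell and -0.135 against cluster 2 alone, and ran from -0.363 to -0.164 on single plates. That in genes detected, -0.122, was -0.036 against cluster 2 alone, -0.20 without the myelin-poor cell and 0.012 after thinning, and -0.162 to -0.082 on single plates. The cause of these shifts was not tested. The settings without single cells of plate 1 and the thinned gene numbers were chosen after seeing the data.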
